A study of Homo sapiens with 4 samples.

Results

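Peaks of acetylated histone H3 lysine 27 (H3K27ac) that the DU-145 and OVCAR-3 cell lines shared, and that neither COLO-205 nor SKOV-3 had, were described here. A DU-145 peak was taken as a member if it overlapped an OVCAR-3 peak by at least 1 base and overlapped no peak of COLO-205 or SKOV-3. The rule found 12131 members among 75468 DU-145 peaks, which is 16.1% (95% exact interval 15.8 to 16.3%), out of 251138 peaks in the 4 lists. Members held 6579755 of the 39555267 bases under DU-145 peaks. Their overlap with the 4 lists is what chose them, that is, they were selected on the position of the called peaks, so their strength in DU-145 and OVCAR-3 is given as a description and carries no test.

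H3K27ac is placed by the acetyltransferases EP300 and CREBBP on nucleosomes that flank active promoters and enhancers. Promoters lie at transcription starts, where RNA polymerase begins, whereas enhancers can act on a gene from far away and tend to be used in few cell types. Stretches of closely spaced acetylated enhancers often lie beside genes that matter to the identity of a cell. The nucleosomes next to a bound factor carry the mark, while the bound site itself tends to be depleted of nucleosomes.

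The 4 established human carcinoma lines were profiled by chromatin immunoprecipitation and sequencing with an antibody to H3K27ac, and the labels give no treatment. DU-145 is a prostate carcinoma line kept in Eagle's minimal essential medium, OVCAR-3 an ovarian carcinoma line kept in RPMI 1640, SKOV-3 an ovarian carcinoma line kept in McCoy's 5a medium and COLO-205 a colon carcinoma line kept in RPMI, each with fetal bovine serum. There was 1 library per line, so differences between lines cannot be told apart from differences between libraries, and no test between lines was possible. Peak lists held 85576 peaks in COLO-205, 76093 in OVCAR-3, 75468 in DU-145 and 14001 in SKOV-3, from an estimated 29800000, 34200000, 36000000 and 22400000 ChIP tags, worked out from the background in the lists. Since the SKOV-3 list was short, a region could be free of a SKOV-3 peak more easily than of a COLO-205 peak. Intervals below cover counting error only.

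The lines were checked against marker genes, counted as marked where a peak lay within 1 kb of a transcription start. OVCAR-3 was marked at 9 of 10 genes of Mullerian and ovarian carcinoma, COLO-205 at 8 of 10 colon epithelial genes and SKOV-3 at 5 of the 10 Mullerian and ovarian genes, without WT1 and MUC16. DU-145 was marked at 3 of 10 prostate luminal genes, SLC45A3 and TMPRSS2 among them, and had no peak at KLK2, KLK3 and HOXB13. The colon counts followed the labelled tissue: SKOV-3 was marked at 0 of the 10 colon genes, and OVCAR-3 and DU-145 at 1 each. The prostate luminal counts, and the Mullerian and ovarian counts outside OVCAR-3, did not follow the labelled tissues closely. DU-145 and COLO-205 were each marked at 6 of the 10 Mullerian and ovarian genes, above the 5 of the ovarian line SKOV-3. The SKOV-3 list was much the shortest, at 14001 peaks. No count of this check was set against the share of all genes marked in the same line. COLO-205 and OVCAR-3 were each marked at 4 of the 10 prostate luminal genes, above the 3 of DU-145, and SLC45A3 and TMPRSS2 were marked in both. No prostate luminal gene had a member within 1 kb of its transcription start.

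Summit windows of 3 members, each of 300 bases, are shown because they stand for the kinds of region found among the members. NUAK2 names a region outside annotated genes and NFKBIA an intronic one, both among the 10 members with the highest lower significance over the 2 lists. CCN1 names a promoter member of the gene of a secreted matricellular protein known as a YAP and TEAD target. Sequences are the plus strand of GRCh37, and capitals mark every match, on either strand, to the 18 short motifs searched. The windows are chr1:205267300-205267599, chr14:35870438-35870737 and chr1:86045768-86046067.
NUAK2: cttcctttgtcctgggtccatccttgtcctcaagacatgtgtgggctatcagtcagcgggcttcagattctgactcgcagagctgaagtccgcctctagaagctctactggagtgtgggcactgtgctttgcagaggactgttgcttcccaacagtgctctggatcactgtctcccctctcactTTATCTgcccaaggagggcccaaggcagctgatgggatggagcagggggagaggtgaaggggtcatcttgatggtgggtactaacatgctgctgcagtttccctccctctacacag
NFKBIA: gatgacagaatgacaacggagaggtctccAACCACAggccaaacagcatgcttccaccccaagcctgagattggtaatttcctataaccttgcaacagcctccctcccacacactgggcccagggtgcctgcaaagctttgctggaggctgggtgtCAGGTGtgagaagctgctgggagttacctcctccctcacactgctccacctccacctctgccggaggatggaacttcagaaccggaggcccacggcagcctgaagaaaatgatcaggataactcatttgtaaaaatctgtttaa
CCN1: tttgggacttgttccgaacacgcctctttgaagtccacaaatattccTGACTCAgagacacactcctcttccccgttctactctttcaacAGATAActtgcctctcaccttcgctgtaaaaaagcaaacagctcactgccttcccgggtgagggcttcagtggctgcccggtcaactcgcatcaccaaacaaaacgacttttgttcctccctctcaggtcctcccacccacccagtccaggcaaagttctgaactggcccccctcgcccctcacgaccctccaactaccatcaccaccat
Counting from 1 at the left end, the NUAK2 window held only a GATA match, at position 185, and the NFKBIA window a RUNX match at 30 and an E-box match at 157. The CCN1 window had the AP-1 letters at 48 and GATA at 91. Matches are descriptions of letters, not of bound sites.

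Another 2 windows of 300 bases are shown because their centres lie between members and not at a summit. They are centred on gaps of under 350 bases between a pair of neighbouring distal members, and were taken from the 3 pairs with the highest lower significance whose gap window held the AP-1 letters. This choice was made after the profile of motifs around summits had been seen. They lie at chr18:702791-703090 and chr20:48392851-48393150, and are named by the nearest protein-coding gene.
gap (ENOSF1): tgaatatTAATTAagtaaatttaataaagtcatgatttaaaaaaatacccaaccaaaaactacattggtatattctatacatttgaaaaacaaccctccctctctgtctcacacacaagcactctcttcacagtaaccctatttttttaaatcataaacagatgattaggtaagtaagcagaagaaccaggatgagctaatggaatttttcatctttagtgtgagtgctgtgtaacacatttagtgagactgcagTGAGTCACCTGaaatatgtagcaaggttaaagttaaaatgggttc
gap (SLC9A8): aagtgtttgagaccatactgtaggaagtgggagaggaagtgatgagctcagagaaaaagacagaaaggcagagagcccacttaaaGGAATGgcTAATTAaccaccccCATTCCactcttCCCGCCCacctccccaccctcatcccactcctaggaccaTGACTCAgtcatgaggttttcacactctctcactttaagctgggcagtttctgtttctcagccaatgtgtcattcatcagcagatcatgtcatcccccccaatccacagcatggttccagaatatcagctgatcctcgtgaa
The AP-1 letters stood at positions 256 and 159. In the window named for ENOSF1 they overlapped an E-box match on the other strand at 261. The window named for SLC9A8 also held the TEAD letters at 86 and 108.

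Members met 12555 OVCAR-3 peaks, 16.5% of that list, and 11380 members met 1 OVCAR-3 peak each. The OVCAR-3 peaks covered a median of 75.9% of a member, and 2255 members (18.6%) were covered in full. The summits in DU-145 and OVCAR-3 lay a median of 61 bases apart. Few members rested on a sliver of overlap: 109 had under 10% of their length covered. Of the OVCAR-3 peaks met, 571 (4.55%) reached on into a COLO-205 or SKOV-3 peak, so that 11507 members (94.9%) had only OVCAR-3 partners free of both other lines. Near the edge of the rule, 123 members overlapped OVCAR-3 by 50 bases or fewer and 112 DU-145-only peaks lay within 50 bases of an OVCAR-3 peak, with median DU-145 -log10 q values of 6.76 and 7.0 and median widths of 312 and 317.5 bp.

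Absence from the other lines was a matter of distance as well. The nearest COLO-205 peak lay a median of 7225 bp from a member and the nearest SKOV-3 peak a median of 28346 bp. A COLO-205 peak lay within 350 bp of 1090 members (8.99%) and within 5 kb of 5083 (41.9%). A SKOV-3 peak lay within 350 bp of 713 members (5.88%) and within 5 kb of 2784 (22.9%). Many members therefore lay in neighbourhoods that another line marked at a different position. These distances were not taken for other DU-145 peaks, so they are not shown to be particular to members.

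Members had higher significance than the median DU-145 peak, but not a higher fold. In DU-145 the fold enrichment over input at the summit ran from 1.90 to 29.5 with a median of 4.41, and the -log10 q value had a median of 10.6 against 9.17 for all DU-145 peaks. The median fold of all DU-145 peaks was 4.50. In OVCAR-3 the partner peaks had a median fold of 5.43 and a median -log10 q of 13.7. Both values were at least 10 in 4831 members (39.8%), and both were under 5 in 19. Members were a median of 418 bp wide (95% interval 412 to 422), against 371 bp for all DU-145 peaks. The median member width was 537 bp at a -log10 q of at least 10 in both lines. With every list held to its 14001 strongest peaks it was 776 bp.

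Summit pileup, the number of tags stacked at the summit, was put on a scale of tags per 1000000 ChIP tags. The median was 34 tags in both lines, against 27 tags for each whole list. After scaling the median was 0.944 in DU-145 and 0.994 in OVCAR-3, and the median log2 difference of DU-145 against OVCAR-3 was -0.05 (interval -0.07 to -0.03). This difference depended on the settings. It was -0.16 where OVCAR-3 covered at least 50% of the peak and -0.43 with every list held to its 14001 strongest peaks. OVCAR-3 was the higher in 6471 members (53.3%), and 1720 members (14.2%) differed by more than 1 on the log2 scale. Across members the pileups of both lines went together with a Spearman rho of 0.66 over 12131 members, 0.46 over promoter members and 0.52 over distal members. These points come from 1 library per line and share base composition and region width, so the coefficients are descriptions.

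**Figure D1:**
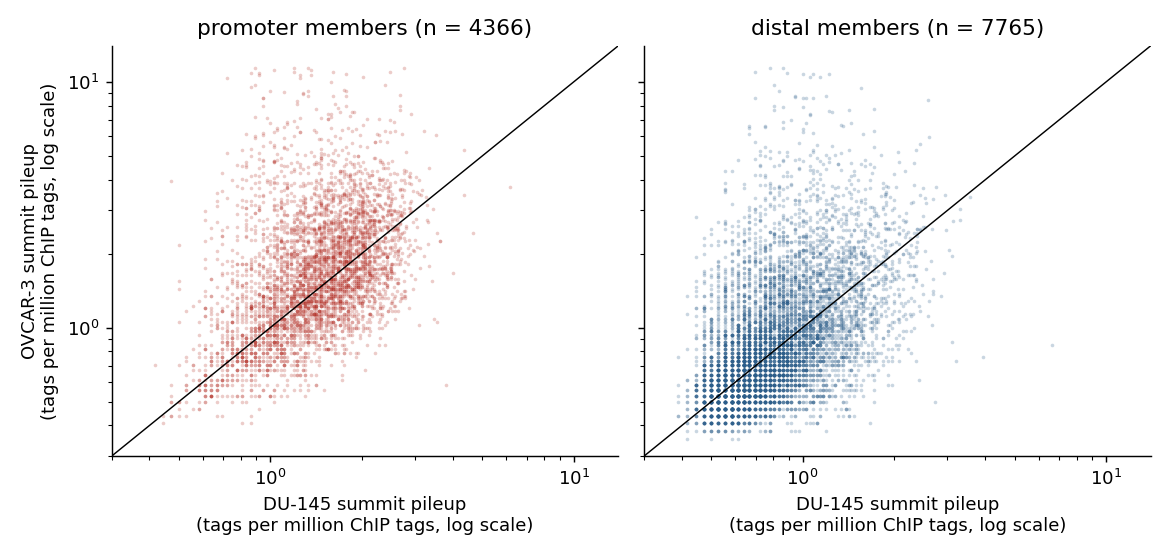
Summit pileup of each member in DU-145 (x axis) and of its strongest OVCAR-3 partner (y axis), in tags per 1000000 ChIP tags on log scales, with the line of equality. Promoter members sit higher on both axes than distal members, and OVCAR-3 values reach 11.4 where DU-145 values reach 6.64.

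The member with the highest lower significance lay in an exon of VAV1, a guanine nucleotide exchange factor best known from blood cells, at chr19:6826906-6830343 (hg19). Its fold over input was 15.4 in DU-145 and 15.2 in OVCAR-3, from 119 and 94 tags at the summit. OVCAR-3 covered 30.9% of it, so it is not kept when at least 50% must be covered. The nearest COLO-205 peak was 4269 bp away and the nearest SKOV-3 peak 24982 bp. Its height is a description, since the choice of members by their lower significance used it.

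A second strong member covered the transcription start of BRMS1L, a part of SIN3 and histone deacetylase complexes, at chr14:36295287-36296534. Its pileup was 222 tags in DU-145 and 128 in OVCAR-3, a log2 difference of 0.72 after scaling to depth, OVCAR-3 covered 37.8% of it, and the nearest peak of either other line was over 16 kb away (16912 bp). PSD3, a guanine nucleotide exchange factor for ARF proteins, had a promoter member of 94 and 87 tags, with a SKOV-3 peak 264 bp away. UCHL1, a ubiquitin hydrolase abundant in neurons, had a promoter member at chr4:41258591-41260120 with 93 tags in DU-145 and 89 in OVCAR-3. FNTB, the beta subunit of farnesyltransferase, had one with 105 and 112 tags, and CLIP1, a microtubule plus-end protein, one with 85 and 96. These members were selected on high significance in both lists, which favours regions of like height.

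Among the other strong members, NUAK2, an AMPK-related kinase, was the nearest gene of a region at chr1:205266752-205269021, 21852 bp from its start. OVCAR-3 covered 97.4% of it, with 91 tags in DU-145 and 88 in OVCAR-3. NFKBIA, which encodes the NF-kB inhibitor alpha, was nearest to 2 of these members. The intronic one at chr14:35870313-35870868 had 81 tags in DU-145 and 79 in OVCAR-3, and the other, 28205 bp away at chr14:35841078-35844780, had 82 and 74. HSP90AA1, a cytosolic chaperone, had a promoter member with 114 and 124 tags, but a COLO-205 peak lay 305 bp from it.

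Members were more often at promoters than DU-145 peaks in general. Of the members, 4366 (36.0%, interval 35.1 to 36.9%) lay no more than 1 kb from the start of a protein-coding gene, against 24.0% of all DU-145 peaks. It was 53.1% at a -log10 q of 10 or more in both lines, and 74.4% when every list was held to its 14001 strongest peaks, which also shortens the COLO-205 list that members must avoid. DU-145-only peaks were there in 9.63%, peaks shared only with COLO-205 in 17.8% and peaks shared only with SKOV-3 in 15.8%. Peaks of all 4 lists were there in 86.9%. The share at promoters thus lay between that of peaks with 1 line and that of peaks with 3 or 4 lines. The other members were in introns (4437, 36.6%), outside annotated genes (2189, 18.0%), in lncRNA genes (828, 6.83%) and in exons (311, 2.56%).

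**Figure D2:**
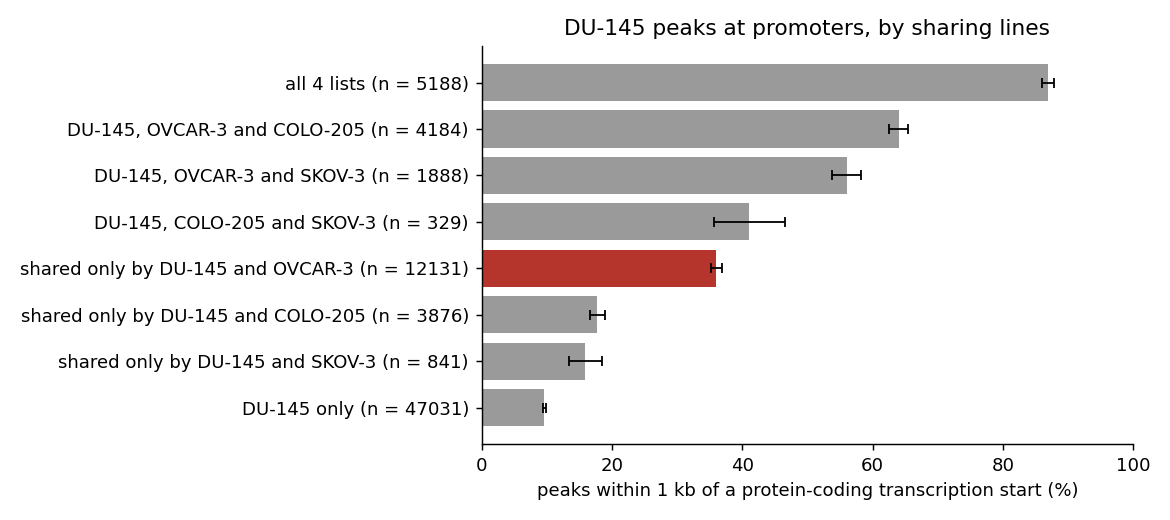
Percent of DU-145 peaks no more than 1 kb from the start of a protein-coding gene (x axis), for each set of lines that share the peak (y axis), with exact 95% intervals. Members (red) reach 36.0%, above the 17.8% and 15.8% of peaks shared with one other line.

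Promoter and distal members differed in base composition and height. Promoter members had a median GC content of 62.0% in the 300-base summit window and a ratio of observed to expected CpG of 0.70, whereas distal members, those over 1 kb from such a start, had 53% and 0.29. Promoter members had a median pileup of 51 tags in DU-145 and 54 in OVCAR-3, against 28 and 27 tags in distal members. Their median widths were 478 and 388 bp. Distal members lay a median of 16500 bp from the nearest start.

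At the gene level, 4061 of 19748 protein-coding genes (20.6%) had a member within 1 kb of a transcription start. Of these, 2070 also had a peak of COLO-205 or SKOV-3 within 1 kb, at another position. Genes marked in DU-145 and OVCAR-3 alone numbered 2061 (10.4%), and 1984 of them had a member at the start. The gene lists that follow were set up with earlier results of these data known, and no list was tested. Where a count is compared, it is with these 20.6% and 10.4%. Both shares count the 5164 genes (26.1%) marked in no line, and no share among marked genes was computed.

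Of 14 p53 target genes, 6 had a promoter member (42.9%, against 20.6% of genes) and 5 were marked in DU-145 and OVCAR-3 alone (35.7%, against 10.4%). All 14 were marked in DU-145 and 13 in OVCAR-3, whereas the shares of genes count unmarked genes too. The 5 were the death receptor gene FAS, PHLDA3, an inhibitor of AKT, RRM2B, a ribonucleotide reductase subunit, TP53I3, a quinone oxidoreductase, and ZMAT3, an RNA-binding protein. The member over the FAS start had 63 tags in DU-145 and 75 in OVCAR-3, at chr10:90749978-90751332, and the nearest COLO-205 peak was 109171 bp away. The ZMAT3 member had 60 and 69 tags. FDXR, a mitochondrial reductase, had 2 promoter members with 95 and 83 tags in DU-145.

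Of 18 TGF-beta and BMP pathway genes, 6 (33.3%, against 20.6%) had a promoter member and 4 (22.2%, against 10.4%) were marked in these 2 lines alone. The ligand TGFB2 had 2 members at its start, with 67 and 74 tags in DU-145 and 100 and 90 in OVCAR-3, and the nearest COLO-205 peak was 108685 bp away. The ligand TGFB3 had 60 tags in DU-145 and 73 in OVCAR-3, at chr14:76447704-76449241. INHBA, which encodes an activin subunit, had a weaker member with 37 and 29 tags, which OVCAR-3 covered over 19.9% and not at the DU-145 summit. ID3, a transcription inhibitor induced by BMP signals, had 2 members, both higher in OVCAR-3 with log2 differences of -0.99 and -0.78. The signal transducer SMAD3 also had 2, at internal starts, and 22 members in all lay nearest to it.

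Of 16 YAP and TEAD targets, 5 (31.2%, against 20.6%) had a promoter member and 2, CCN1 and AMOTL1, were marked in DU-145 and OVCAR-3 alone, a share near the 10.4% of all genes. In this list 15 genes were marked in DU-145 and 15 in OVCAR-3, whereas the 20.6% counts unmarked genes too. CCN1 had 3 members at its start. The one with the highest pileup, at chr1:86046521-86047092, had 53 tags in DU-145 and 138 in OVCAR-3. Its fold in DU-145 was 3.06, below the 4.40 and 5.22 of the other CCN1 members. The COLO-205 peak nearest to these members was 114499 bp away. AMOTL1, a junction protein that binds YAP, had 53 tags in DU-145 and 37 in OVCAR-3. CCN1 and AMOTL1 thus leaned in opposite directions between the lines. For AMOTL1 the counting intervals overlapped, at 39.7 to 69.3 tags in DU-145 and 26.1 to 51.0 in OVCAR-3.

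Of 24 integrin and laminin genes, 5 had a promoter member (20.8%, near the share of all genes), and LAMA1, LAMA2 and LAMB3 were marked in these 2 lines alone, again a share near the 10.4% of all genes. The LAMA1 member, at the start of a laminin alpha chain gene at chr18:7116827-7118285, had 59 tags in DU-145 and 43 in OVCAR-3. Laminin genes encode chains of the basement membrane. LAMA2's member was weaker, with 30 and 37 tags.

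Of 20 NF-kB and cytokine genes, 2 had a promoter member, under the 20.6% of all genes, and both were marked in DU-145 and OVCAR-3 alone, near the 10.4% of all genes. IL6, an inflammatory cytokine, had 2 members with 57 and 68 tags in DU-145 and 38 and 34 in OVCAR-3, and the nearest COLO-205 peak was 162267 bp away. ICAM1, an adhesion molecule, had a member of 93 tags in DU-145 and 37 in OVCAR-3, but OVCAR-3 covered only 7.48% of it and not its DU-145 summit, so those tags were counted at different places. OVCAR-3 covered 47.2% and 46.8% of the IL6 members, so none of these 3 members is kept when at least 50% must be covered. By nearest start, 54 members fell to 8 of the 20 genes, against 29.3% of all genes with a member, and NFKBIA alone took 27 and LIF 14.

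MUC16, the gene of the CA125 antigen used as an ovarian tumour marker, had a promoter member at chr19:9119611-9121779, with 42 tags in DU-145 and 112 in OVCAR-3, a log2 difference of -1.49. FOLR1, the folate receptor, had a weak one with 19 and 20 tags, which OVCAR-3 covered over 25.95% and not at the DU-145 summit. These 2 of 10 Mullerian and ovarian genes (20.0%) sat near the 20.6% of all genes with a promoter member. Both were marked in DU-145 and OVCAR-3 alone, again 20.0% of the list, against 10.4% of all genes. HOXC4 and HOXC6 had the same 2 promoter members, and 2 of 9 HOXC genes (22.2%) is near the share of all genes. HOXC4 was also marked in COLO-205, with a peak 263 bp from one of these members. No gene of the HOXB and HOXD lists had a promoter member.

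In the other lists the counts lay on both sides of the 20.6% of all genes. Promoter members were at 7 of 20 ribosomal protein genes (35.0%, above the share of the TGF-beta list), 3 of 11 AP-1 family genes (27.3%, ATF3, FOSL2 and JDP2) and 6 of 22 nuclear receptor genes (27.3%). Near it were 4 of 18 interferon response genes (22.2%) and 5 of 24 FGF and EGF ligands and receptors (20.8%). Below it were 3 of 24 WNT ligands and receptors (FZD1, FZD4 and WNT4), 3 of 17 keratin genes, 3 of 21 annexin and S100 genes, 2 of 15 SOX genes, 1 of 8 GATA and FOXA genes and 2 of 16 cyclin and CDK genes. Of the marker lists, promoter members were at 4 of 12 epithelial, 2 of 10 basal epithelial, 1 of 12 mesenchymal, 1 of 8 fibroblast, 1 of 7 endothelial, 0 of 8 immune and 0 of 10 colon genes.

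Motif letters at member summits were compared with those of all DU-145 peaks, and the intervals of the shares overlapped for some strings and not for others. The AP-1 letters TGANTCA, bound by FOS and JUN dimers, were within 150 bases of the summit in 8.56% of distal members (interval 7.95 to 9.21%), against 7.77% of all distal DU-145 peaks. Over all members the share was 6.96%, against 6.79% of all DU-145 peaks. The member share was 3.97% with every list held to its 14001 strongest peaks and 12.99% when the whole peak was searched. The TEAD letters GGAATG were in 12.8% of distal members, against 11.9% of distal peaks. The KLF and SP letters GGGCGGG were in 6.46% of distal members, against 4.65%, with intervals of 5.93 to 7.03% and 4.48 to 4.82%. At promoters the KLF and SP share was 28.0% in members and 31.5% in all promoter peaks, and the ETS letters CCGGAAG were in 6.21% and 6.48%. An E-box with the letters CAGGTG was common everywhere, in 38.8% of members and 42.2% of peaks. For the GATA letters AGATAA these shares were 5.86% and 6.25%.

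Over promoter and distal members together, TEAD letters were in 12.47% of members and 11.6% of DU-145 peaks, KLF and SP letters in 14.2% and 11.1%, and ETS letters in 3.52% and 2.86%. The RUNX letters TGTGGTT were in 3.45% and 3.26%, the CEBP letters TTGCNNAA in 7.25% and 7.05%, the FOX letters TGTTTAC in 1.67% and 1.64%, and the SOX letters AACAATG in 1.73% and 1.71%. The homeobox letters TAATTA were in 2.74% and 2.99%, and the YY1 letters AAGATGGC in 1.43% and 1.45%. Among the rarest strings, the GRHL letters AACCNGTT were in 1.24% and 1.09%, NF-kB letters GGGANTTTC in 0.948% and 0.837%, CTCF core letters AGGGGGCGC in 0.874% and 0.747%, EGR1 letters GCGTGGGCG in 0.371% and 0.276%, HNF1 letters GTTAATNAT in 0.239% and 0.224%, and HNF4 letters CAAAGTCCA in 0.223% and 0.236%. Some strings can share bases, as KLF and SP with EGR1. These pooled shares mix promoter and distal peaks, and members hold more promoters. The GATA letters were in 4.86% of promoter members against 3.82% of promoter peaks, but in 6.43% of distal members against 7.01% of distal peaks. The CTCF core letters were in 1.83% of promoter members against 2.25% of promoter peaks.

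The AP-1 letters were not most frequent at the summit itself. In 7765 distal members, 2.65% and 2.70% of windows had them in the 100 bases on either side of the summit, against 5.56% and 5.89% in the bins 200 to 300 bases away. Beyond 900 bases the shares were 3.57% and 3.34%. The KLF and SP letters at promoter members also dipped at the summit, with 10.6% in both bins there and 18.5% and 17.0% in the bins 200 to 300 bases away, but they stood above the 4.03% and 4.31% found beyond 900 bases. DU-145-only peaks had the dip too.

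**Figure D3:**
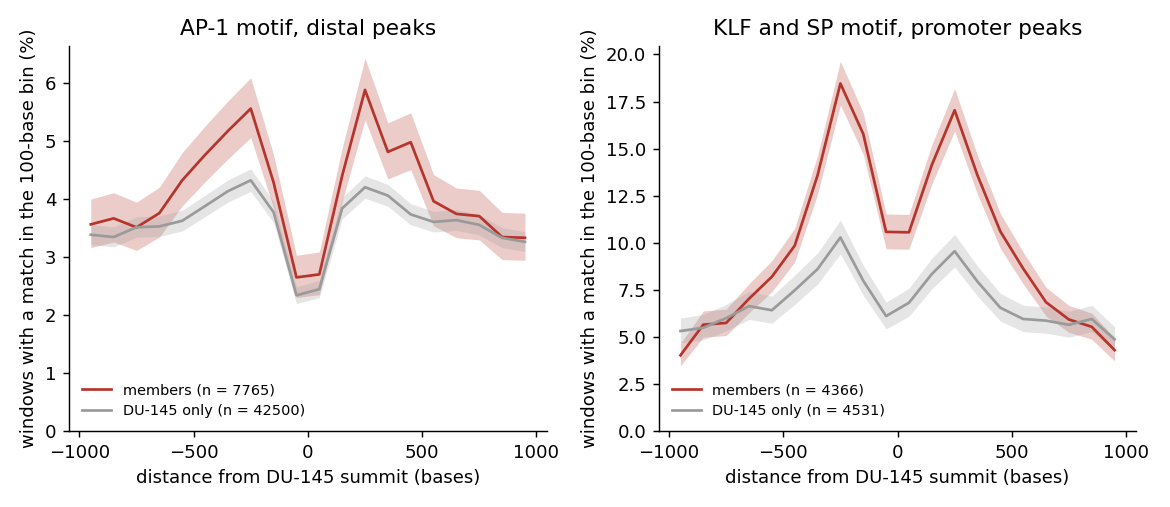
Percent of windows with a motif match in each 100-base bin (y axis) by distance from the DU-145 summit in bases (x axis), for members (red) and DU-145-only peaks (grey), with exact 95% intervals shaded. Both motifs dip at the summit, and in members the AP-1 share goes from 2.65% at the summit to 5.89% in the bin 200 to 300 bases away.

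Gaps between neighbouring peaks were examined next, a step chosen after the profile had been seen. Among distal DU-145 peaks, 682 pairs of members lay under 350 bases apart, with a median gap of 177 bases. A window of 300 bases on a gap thus usually took in bases of the flanking peaks too. Shares in gaps below are shares of such windows. The 300 bases centred on the gap held the AP-1 letters in 18.3% (interval 15.5 to 21.4%), against 7.77% (6.41 to 9.32%) of the 1364 summit windows of the same pairs, in which a peak of several pairs counts each time. Pairs of DU-145-only peaks had them in 13.98% of 4706 gaps and 8.69% of summits, and all DU-145 pairs in 16.4% of gaps. The RUNX letters were in 5.43% of member gaps and 2.86% of their summits, the GATA letters in 15.5% and 8.06%, and the TEAD letters in 18.3% and 15.2%. AP-1 was not alone in this: the homeobox letters were in 8.80% of gaps and 3.81% of summits, the GRHL letters in 2.64% and 0.953%, and the CEBP letters in 12.46% and 8.28%. The E-box letters went the other way, with 27.6% in gaps and 42.5% at summits. Median GC content was 48.7% in gaps and 54.0% at summits, and its part in these shares was not tested. OVCAR-3 peaks left 246 of the 682 gaps free of any covered base and covered 211 in full.

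Members were unevenly spread over the chromosomes. The share of DU-145 peaks that were members was 36.3% on chromosome 3 (930 members, interval 34.4 to 38.2%), 28.5% on X (51 members), 25.4% on 21 and 22.7% on 19. It was lowest on chromosome 13, with 10 members of 249 peaks (4.02%, interval 1.94 to 7.26%). Chromosome 14 had the most members, 1312, although only 12.2% of its 10794 DU-145 peaks were members. Chromosome 3 had 10559 OVCAR-3 peaks, the most of any chromosome in that list. The median log2 pileup difference of members was 0.22 on chromosome 14 and 0.05 on 21, with DU-145 the higher. It was -0.24 on chromosome 3, -0.38 on 19 and -0.54 on X, with OVCAR-3 the higher.

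**Figure D4:**
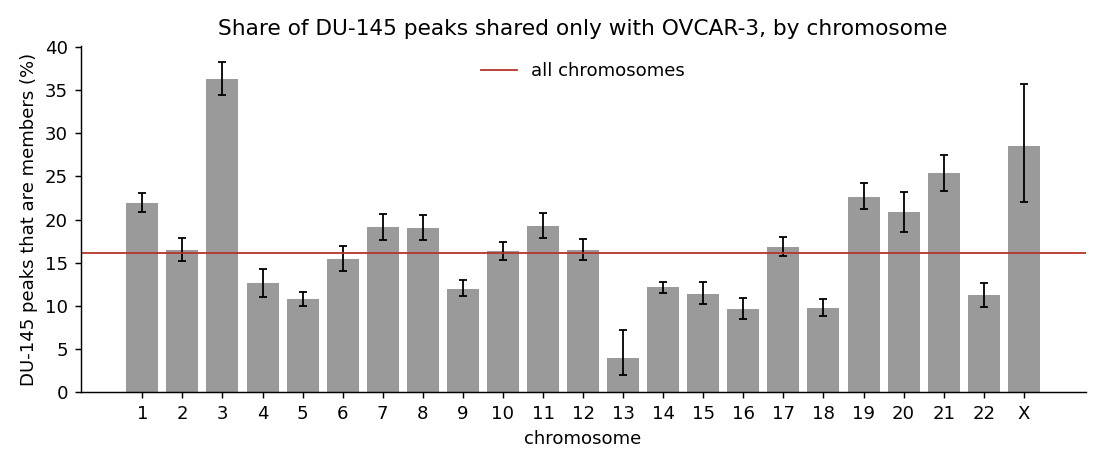
Percent of DU-145 peaks that are members (y axis) on each chromosome (x axis), with exact 95% intervals, and the share over all chromosomes (red line, 16.1%). Chromosome 3 stands highest at 36.3% and chromosome 13 lowest at 4.02%.

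The share of members moved with how much of the neighbourhood OVCAR-3 peaks covered. The rule partly sets this, since a member must overlap an OVCAR-3 peak. In 1-Mb windows with under 1% of bases under OVCAR-3 peaks, 9.75% of DU-145 peaks were members. This share was 18.1% in windows of 2 to 5%, 34.9% in windows of 10 to 20% and 56.9% in 15 windows of at least 20%, which held 509 members. The window with the highest coverage among those rich in members was 39 to 40 Mb of chromosome 19, which was 72.6% covered and held 116 members of 156 DU-145 peaks. How much of the overlap comes from such broad coverage was not tested.

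Members also lay in chains. With a limit on the gap between neighbours set just under 13 kb, 4336 members (35.7%, interval 34.9 to 36.6%) stood in 899 chains of 3 or more, and 5055 (41.7%) stood alone. When peaks of both lines had to reach a -log10 q of 10, the share in chains was 15.5%, and it was 3.42% with all lists at their 14001 strongest peaks. By the same gap, 70.1% of DU-145-only peaks and 75.8% of all DU-145 peaks stood in chains of their own class, which hold more peaks and so lie closer together. There were 55 chains of 10 or more members, with 860 members. The longest, at chr14:35656569-35884020, held 69 members over PRORP, PSMA6, a proteasome subunit, and NFKBIA. In its span there were 135 DU-145 and 110 OVCAR-3 peaks, which covered 58.4% and 24.8% of bases, and 11 COLO-205 and 6 SKOV-3 peaks, which covered 1.57% and 1.27%. The rule keeps members free of COLO-205 and SKOV-3 peaks, so low counts of those lines in a chain are partly set by it. The NFKBIA intron window printed above belongs to this chain.

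**Figure D5:**
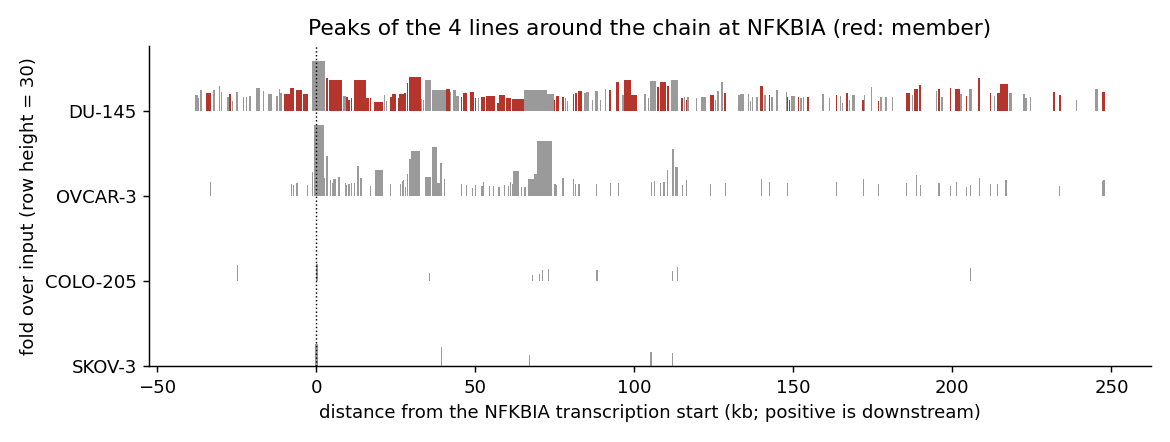
Peaks of the 4 lines by distance from the NFKBIA transcription start in kb (x axis), each bar as wide as its peak and as high as its fold over input (a row is 30 high). Members (red) lie on both sides of the NFKBIA start and reach over 200 kb downstream, and COLO-205 and SKOV-3 have 11 and 6 peaks in the chain.

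The next chains were at SMURF2, a ubiquitin ligase that acts on SMAD proteins (chr17:62612590-62691121, 31 members), at ACTN4, an actin crosslinker (chr19:39108947-39188471, 30 members), at KLC1, a kinesin light chain (chr14:104081410-104170724, 27 members), and at RAI14, an actin-binding protein (chr5:34650294-34751362, 27 members). They differed in how OVCAR-3 marked them. OVCAR-3 peaks covered 70.8% of the ACTN4 chain and 18.8% of the RAI14 chain. COLO-205 had 8 peaks in the SMURF2 chain, where the highest -log10 q of a member was 21.1 in DU-145 and 94.8 in OVCAR-3. Peaks of the other lines were present in each of these chains, with 10 COLO-205 and 14 SKOV-3 peaks in the ACTN4 chain and 5 and 3 in the RAI14 chain.

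Counted by the nearest transcription start, 5782 protein-coding genes (29.3%) had a member, and 492 had 5 or more. The most lay near PSMA6 (41 of its 94 nearest DU-145 peaks), SMURF2 (36 of 54), RAI14 (33 of 100) and RPS29, a ribosomal protein gene (31 of 113). NFKBIA and SAMD4A had 27 each, of 67 and 71, and KAT6B, a histone acetyltransferase gene, had 26 of 31. ACTN4, ANKRD33B, MYOF and TBL1XR1 had 25 each, of 38, 70, 82 and 40. Of these 11 genes, 10 were marked at a start in all 4 lines. MYOF, a membrane repair protein of the ferlin family, was marked in DU-145 and OVCAR-3 alone, where 25 of its 82 nearest DU-145 peaks were members, with fold enrichments over these members of up to 10.5 in DU-145 and up to 20.1 in OVCAR-3, each the highest over the members taken separately. At KAT6B 26 of 31 nearest DU-145 peaks were members, and the highest -log10 q was 21.7 in DU-145 and 358 in OVCAR-3.

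The 10 widest members varied in how much of them OVCAR-3 covered. The widest, 11141 bp in an intron and nearest SNX6, a sorting nexin gene, was covered by OVCAR-3 over 2.90% only, with 51 tags in DU-145 and 15 in OVCAR-3, a log2 difference of 1.69 between summits at different places. The next, also nearest SNX6 and 4161 bp wide, was covered over 4.78%. Those over the starts of SERPINA1, an antiprotease gene, SRP54, a signal recognition particle gene, and FAM83A were covered over 28.6%, 28.8% and 19.8%, and one nearest PROSER2 over 17.1%. Near NFKBIA 2 more were covered over 45.9% and 43.4%, and one near PSMA6 over 69.7%. Of the 10 widest, 8 lay on chromosome 14. The remaining one, near NFKBIA and also among the strongest members, was covered over 89.6%.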

How the data were processed

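H3K27ac ChIP-seq peak lists of 4 lines, 1 library each, were analysed as deposited. According to the submitters' processing notes, reads were handled with Bowtie2 2.1.0 and peaks called with MACS2 2.1.0.20150603 (hg19). The authors deposited a score, a signal column that is the fold (ratio) of ChIP over input at the summit, and the -log10 p and -log10 q values of each peak. The study's methods state a threshold of q = 0.001 and merging of peaks within 350 bp; peaks closer than that are still separate in these files. Peaks were not called on replicates, so the values have no replicate error.

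Here, overlap was set at 1 base or more. Tag pileup at each summit was recovered as the whole number that gives the deposited -log10 p and fold, within 0.001, for 100% of peaks. It was scaled by ChIP tags, which were not read from any file but estimated from the lowest recovered background, the narrowest peak (taken as the fragment length) and an assumed genome of 2700000000 positions, MACS2's default for human. Annotation was GENCODE v44 lifted to GRCh37. Chains had gaps of at most 12.5 kb and at least 3 members. Motifs were 18 letter strings searched on both strands within 150 bases of the summit. Shares carry exact Clopper-Pearson 95% intervals, medians order-statistic intervals. Overlap, chain, motif and pileup code was tested on simulated data (Python 3.11.15, numpy 2.4.6, scipy 1.17.1, pysam 0.24.0). Members and gene lists were chosen with earlier results of these data known. Named were the 10 members with the highest lower -log10 q over both lines, the 10 widest, the 5 chains with most members, the 10 genes with most members (11 by a tie) and listed genes with a promoter member. No test between lines was run, and no p-value was computed. A few listed genes and 1 gap window are not reported here.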

Additional observations from a re-analysis of the deposited data

How the results depend on the processing

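No paired analysis was possible because each of the 4 lines has a single library. The number of members kept within 1.5 times of 12131 except with a -log10 q of at least 10 in DU-145 and OVCAR-3 (4831 members) and with all lists cut to their 14001 strongest peaks, called equal lists here (1638). The share at promoters became 37.6% with at least 50% of the peak covered by OVCAR-3, 36.96% with -log10 q of at least 5, 53.1% with at least 10, 32.2% with no COLO-205 or SKOV-3 peak within 350 bases, 29.8% after merging, 74.4% with equal lists, 38.6% without chromosomes 3 and 14, 42.2% within 2.5 kb and 42.4% with the starts of all genes.
The AP-1 share became 5.71% with -log10 q of at least 10, 3.97% with equal lists, 4.24% within 100 bases of the summit and 12.99% over the whole peak. The share in chains became 30.6% with 50% covered, 34.7% and 15.5% with the 2 significance limits, 27.02% after merging, 3.42% with equal lists, 33.9% without chromosomes 3 and 14, 22.0% with gaps of 5 kb and 49.3% with gaps of 25 kb. The median width became 379 bp with 50% covered, 429 and 537 bp with the significance limits, 465 bp after merging and 776 bp with equal lists. Median GC became 57.3% with the stricter limit, 54.7% after merging, 64.0% with equal lists and 55.7% without chromosomes 3 and 14. The pileup difference became -0.16 with 50% covered, -0.10 with the stricter limit, -0.023 with no other peak within 350 bases and -0.43 with equal lists. Alternatives chosen after seeing the data left out dense OVCAR-3 windows, which gave 34.6% in chains and a difference of -0.020, or the longest chain. Equal lists keep the strongest peaks by construction, and other causes were not tested.

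Depth and list length limit the absence calls: SKOV-3 had the fewest tags and peaks, and absence there was read from the fewest data. All values rest on single libraries and on peak lists, so regions under the calling threshold are not seen.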
